A study of Mus musculus with 8 samples.

Results

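The costimulatory receptors described here are the products of 7 genes: Cd28 and Icos of the CD28 family, and Cd27, Tnfrsf9, Tnfrsf4, Tnfrsf18 and Tnfrsf1b of the tumour necrosis factor (TNF) receptor superfamily. They were chosen by gene symbol, and all 7 were found among the 15609 genes of the table and among the 15112 that passed the filter on low counts. Transcripts were counted in 8 RNA sequencing libraries of sorted spleen CD8 T cells from wild-type C57BL/6 mice that received no treatment named in the labels. Virtual memory (VM) cells, sorted as CD44hi CD49d- cells, are CD8 T cells that gain memory traits with no foreign antigen met. The VM groups were Ly6C+ Sca-1+ (2 libraries, A and B), Ly6C+ Sca-1- (2 libraries, A and B), Ly6C- Sca-1+ (1 library) and Ly6C- Sca-1- (1 library). True memory cells, sorted as CD44hi CD49d+, and naive cells, sorted as CD44- CD49d-, had 1 library each. Every group was wild type, and all cells had first been enriched with anti-CD8 microbeads. Nothing in the labels gives the animals' age, says whether animals were pooled, or says whether libraries A and B came from separate mice, so p-values measure only the spread between these libraries, which may be technical. Library B carries a suffix in the table whose meaning is not stated, and every other library carries none.

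Library totals were 49993407 to 63815914 counts, so 1 count was worth 0.0157 to 0.0200 CPM, which scales counts to a common library total. Cd8a, a chain of the CD8 coreceptor, lay between 1007 and 1315 CPM in all 8 libraries. Ly6c2, which encodes Ly6C, lay between 914 and 964 CPM in Ly6C+ cells, and the Ly6C- libraries had 75.4 and 56.3 CPM. Cd44 was at 136 to 194 CPM in the VM and true memory libraries and at 6.24 CPM in the naive library. Itga4, which encodes CD49d, did not follow the sort in full: it was 233 to 586 CPM in the CD49d- VM libraries, 1379 CPM in the CD49d+ true memory library and 822 CPM in the naive library, which was sorted as CD49d-. Genes listed as markers of cells outside the CD8 lineage were not even across the groups. The summed level of 5 regulatory T cell markers was 46.0 to 58.8 CPM in the Ly6C+ libraries and 339 to 448 CPM in the Ly6C- libraries, with 208 CPM in true memory and 49.4 CPM in naive cells. Of the 7 genes on that list, Foxp3 and Il10 were not analysed here. Ctla4 and Ikzf2 had the largest values in the Ly6C- sums, at 206 and 59.6 CPM in Ly6C- Sca-1+ cells. In Ly6C- Sca-1- cells they had 207 and 190 CPM. Ctla4 is also described below as an inhibitory CD28 family gene, and Ikzf2 as a T cell receptor response gene. Cd4 itself gave 0.160 to 0.968 CPM in Ly6C+ cells, 7.99 CPM in Ly6C- Sca-1+ and 3.70 CPM in Ly6C- Sca-1- cells, 7.86 CPM in true memory and 0.448 CPM in naive cells. The 9 dendritic cell and MHC class II genes summed to 46.3 to 122 CPM in the Ly6C+ libraries and 239 to 362 CPM in the Ly6C- libraries, with 5211 CPM in true memory and 127 CPM in naive cells. The lowest count in the table is 1, so no marker in it stood at 0.

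A T cell that recognises its antigen needs a further signal to divide, survive and form memory, and these receptors deliver it. CD28 is present on resting T cells, binds CD80 and CD86 on antigen-presenting cells, and competes for them with the inhibitory receptor CTLA-4, while ICOS appears after activation, binds ICOS ligand and signals mainly through phosphoinositide 3-kinase. The TNF receptor family members lack the immunoglobulin fold of CD28, bind ligands of the TNF family, and pass the signal through TRAF adaptors to NF-kB; they are best known on CD8 T cells for survival of activated and memory cells.

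Cd28, Icos and the gene between them lie in 1 cluster on mouse chromosome 1 (build GRCm38.p6, the assembly also called mm10). Cd28 spans chr1:60746388-60773359, Ctla4 follows 135665 bp further on at chr1:60909025-60915832, and Icos spans chr1:60960773-61000322, 44940 bp after Ctla4. Of the TNF receptor members, 4 lie on chromosome 4 within 10.8 Mb: Tnfrsf1b at chr4:145212368-145246870 on the minus strand, and on the plus strand Tnfrsf9 at chr4:150920155-150946104, Tnfrsf4 at chr4:156013595-156016613 and Tnfrsf18 at chr4:156026322-156028894. Cd27 lies on the minus strand at chr6:125232620-125237136. Tnfrsf4 and Tnfrsf18 are direct neighbours 9708 bp apart. The annotated end of Sdf4 overlaps the first 16 bases of Tnfrsf4, a stretch short against the gene, and how reads there were assigned is not given in the sources used here.

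Promoter windows of 300 bases, 250 before and 50 after a transcript start, were read from a reference set of promoters (GRCm38.p6) for 5 of the 7 genes. The starts used for Tnfrsf4 and Cd27, and the second start of Tnfrsf9, lie inside the gene spans given above, not at their ends. The 4 windows below are printed because Tnfrsf9 and Tnfrsf4 differed between Ly6C+ and Ly6C- VM cells. Tnfrsf18, the neighbour of Tnfrsf4, did not pass the test. Capitals mark matches, on either strand, to motifs of 3 transcription factors that act downstream of antigen and costimulatory receptors: AP-1 (TGANTCA), NFAT (GGAAAA) and the NF-kB consensus of 10 bases.
Tnfrsf9, first start, chr4:150919905-150920204, + strand: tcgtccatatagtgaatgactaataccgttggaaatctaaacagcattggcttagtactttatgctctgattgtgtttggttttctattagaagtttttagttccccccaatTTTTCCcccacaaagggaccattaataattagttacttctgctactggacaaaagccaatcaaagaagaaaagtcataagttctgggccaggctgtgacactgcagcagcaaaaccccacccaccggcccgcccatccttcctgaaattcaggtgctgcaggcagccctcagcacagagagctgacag
Tnfrsf9, second start, chr4:150927749-150928048, + strand: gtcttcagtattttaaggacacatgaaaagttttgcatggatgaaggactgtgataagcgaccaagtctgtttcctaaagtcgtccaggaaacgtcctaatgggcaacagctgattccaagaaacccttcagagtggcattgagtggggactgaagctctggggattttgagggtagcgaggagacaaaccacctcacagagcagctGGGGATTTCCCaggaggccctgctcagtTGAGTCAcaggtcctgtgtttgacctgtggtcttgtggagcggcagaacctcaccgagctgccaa
Tnfrsf4, chr4:156013445-156013744, + strand: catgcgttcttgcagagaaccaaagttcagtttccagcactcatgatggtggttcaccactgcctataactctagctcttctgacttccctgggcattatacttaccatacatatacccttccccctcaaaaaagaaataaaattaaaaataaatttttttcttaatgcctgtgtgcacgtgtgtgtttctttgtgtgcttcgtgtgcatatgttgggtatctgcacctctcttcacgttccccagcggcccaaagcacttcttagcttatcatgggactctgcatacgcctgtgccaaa
Tnfrsf18, chr4:156026072-156026371, + strand: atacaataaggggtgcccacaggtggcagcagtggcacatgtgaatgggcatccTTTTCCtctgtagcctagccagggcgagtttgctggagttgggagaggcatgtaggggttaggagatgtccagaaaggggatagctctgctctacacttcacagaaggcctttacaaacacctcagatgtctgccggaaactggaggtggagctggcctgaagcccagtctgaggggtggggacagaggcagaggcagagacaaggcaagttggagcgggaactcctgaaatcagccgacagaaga

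The second Tnfrsf9 window held an AP-1 match beginning 15 bases before the start and 3 NF-kB matches that overlap one another, beginning 43 and 42 bases before it. The AP-1 motif reads the same on both strands, so its match is 1 place. The first Tnfrsf9 window held an NFAT match on the minus strand 138 bases before its start, and the Tnfrsf18 window one on the minus strand 196 bases before its start. The Tnfrsf4 and Tnfrsf1b windows held none of the 3 motifs, and the Cd27 window held an NFAT match on the plus strand 52 bases before its start. Among all 32851 promoter windows, 7.81% held the AP-1 motif, 23.4% the NFAT motif and 4.51% the NF-kB consensus. A match describes letters in the window and says nothing of whether a factor binds there. Cd28 and Icos are named without a window.

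Cd28 was higher in every memory library than in the naive one. It had 393 and 318 CPM in Ly6C+ Sca-1+ libraries A and B, 411 and 281 CPM in Ly6C+ Sca-1- libraries A and B, 343 CPM in Ly6C- Sca-1+, 398 CPM in Ly6C- Sca-1-, 219 CPM in true memory and 136 CPM in naive cells. All 6 VM libraries lay above true memory, and true memory above naive. The 4 Ly6C+ values spanned both Ly6C- values, so the Ly6C groups overlapped.

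Icos was higher in both Ly6C- VM libraries than in any other. It had 42.2 and 53.2 CPM in Ly6C+ Sca-1+ libraries A and B, 40.0 and 45.8 CPM in Ly6C+ Sca-1- libraries A and B, 104 CPM in Ly6C- Sca-1+, 80.6 CPM in Ly6C- Sca-1-, 56.9 CPM in true memory and 37.6 CPM in naive cells. The Ly6C+ and Ly6C- libraries did not overlap, and true memory lay between them.

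Tnfrsf9 encodes CD137, a receptor induced on T cells by antigen that binds the ligand encoded by Tnfsf9. It had the widest range of the 7, with 4.31 times as many CPM in its highest as in its lowest library. It had 12.9 and 16.8 CPM in Ly6C+ Sca-1+ libraries A and B, 15.0 and 15.7 CPM in Ly6C+ Sca-1- libraries A and B, 30.3 CPM in Ly6C- Sca-1+, 55.7 CPM in Ly6C- Sca-1-, 23.7 CPM in true memory and 13.2 CPM in naive cells. All 4 Ly6C+ libraries lay near naive and below true memory, and both Ly6C- libraries lay above true memory.

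Tnfrsf4 encodes OX40, which is also induced by activation and is abundant on activated CD4 T cells and regulatory T cells. It was the least abundant member, at 4.30 and 4.67 CPM in Ly6C+ Sca-1+ libraries A and B, 5.31 and 4.82 CPM in Ly6C+ Sca-1- libraries A and B, 7.66 CPM in Ly6C- Sca-1+, 8.18 CPM in Ly6C- Sca-1-, 6.54 CPM in true memory and 6.85 CPM in naive cells. These are 241 to 522 counts a library. The 4 Ly6C+ libraries were the lowest 4 of the 8, and the 2 Ly6C- libraries the highest.

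Cd27, whose receptor binds CD70 and is carried by naive and memory T cells, was nearly even. It had 239 and 311 CPM in Ly6C+ Sca-1+ libraries A and B, 254 and 303 CPM in Ly6C+ Sca-1- libraries A and B, 300.0 CPM in Ly6C- Sca-1+, 317 CPM in Ly6C- Sca-1-, 242 CPM in true memory and 261 CPM in naive cells. The highest library had 1.33 times the CPM of the lowest, and the 2 Ly6C+ Sca-1+ libraries alone spanned 239 to 311 CPM.

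Tnfrsf18 encodes GITR, a receptor best known from regulatory T cells and present at lower levels on other T cells. It had 25.5 and 24.8 CPM in Ly6C+ Sca-1+ libraries A and B, 27.5 and 28.9 CPM in Ly6C+ Sca-1- libraries A and B, 26.9 CPM in Ly6C- Sca-1+, 28.3 CPM in Ly6C- Sca-1-, 25.8 CPM in true memory and 30.1 CPM in naive cells. Its range of 1.21 times between the highest and lowest library was the narrowest of the 7.

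Tnfrsf1b encodes TNFR2, which binds TNF and lymphotoxin alpha. It had 94.2 and 89.9 CPM in Ly6C+ Sca-1+ libraries A and B, 94.0 and 82.0 CPM in Ly6C+ Sca-1- libraries A and B, 103 CPM in Ly6C- Sca-1+, 91.8 CPM in Ly6C- Sca-1-, 119 CPM in true memory and 64.8 CPM in naive cells. The naive library was the lowest, true memory the highest, and the Ly6C groups overlapped.

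**Figure D1:**
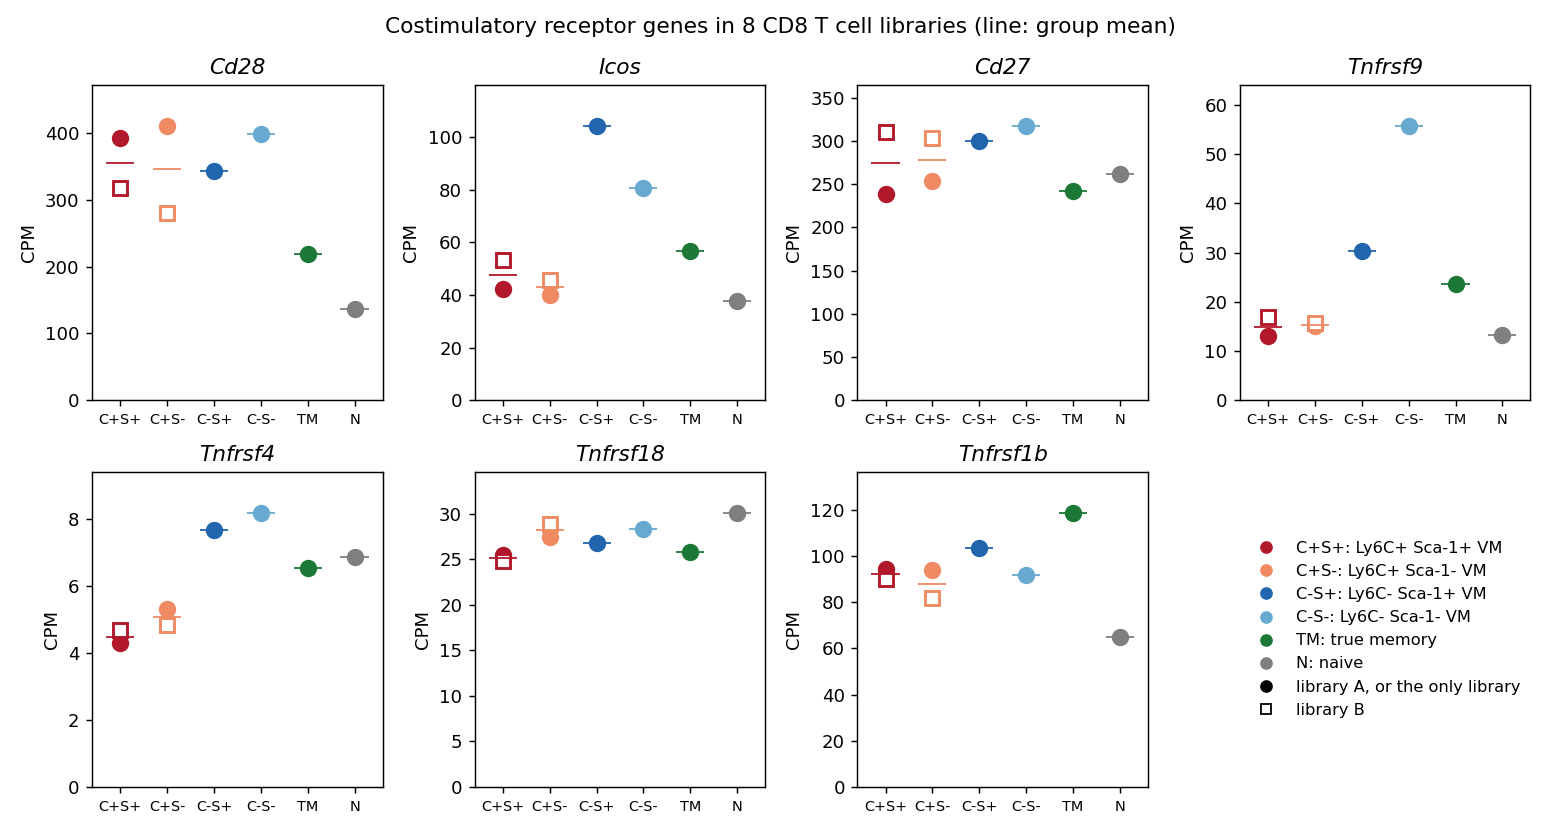
CPM of the 7 genes (vertical axes, linear from 0) in each library of the 6 sort groups (horizontal axes), with filled circles for library A or the only library of a group, open squares for library B and a line at the group mean. Icos, Tnfrsf9 and Tnfrsf4 stand higher in both Ly6C- libraries than in all 4 Ly6C+ libraries, whereas Cd28 stands lowest in the naive library at 136 CPM.

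Ly6C+ VM cells had less transcript than Ly6C- VM cells for 3 of the 7 receptors and did not differ past the threshold for the other 4. Calls are Benjamini-Hochberg adjusted p-values under 0.05 over all 15112 genes from edgeR's quasi-likelihood test, and log2 fold changes are given ± SE. SE and p rest on the spread within the 2 Ly6C+ groups, because every other group had 1 library. Of the 7 receptors 3 were called, all as lower in Ly6C+ cells, where 21.4% of all genes tested were called, 12.6% as lower and 8.88% as higher. Tnfrsf9 averaged 15.1 CPM in the 4 Ly6C+ libraries and 43.0 CPM in the 2 Ly6C- libraries, a log2 fold change of -1.40 ± 0.12 (adjusted p = 0.0012). Icos averaged 45.3 CPM in Ly6C+ and 92.5 CPM in Ly6C- cells, a log2 fold change of -0.97 ± 0.097 (adjusted p = 0.0020). Both kept their call with any 1 of the 6 VM libraries left out, at log2 fold changes of -1.78 to -1.01 for Tnfrsf9 and -1.11 to -0.83 for Icos. Tnfrsf4 averaged 4.78 CPM in Ly6C+ and 7.92 CPM in Ly6C- cells, a log2 fold change of -0.68 ± 0.16 (adjusted p = 0.030). The Tnfrsf4 call is less secure. Its adjusted p by edgeR was 0.093 without Ly6C+ Sca-1+ library A, 0.080 without library B of that group, 0.098 without Ly6C- Sca-1- and 0.18 without Ly6C- Sca-1+, with the fold change between -0.75 and -0.61 on the log2 scale.

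The remaining 4 receptors had log2 fold changes between Ly6C+ and Ly6C- cells of -0.11 ± 0.12 for Cd27, -0.022 ± 0.20 for Cd28, -0.0026 ± 0.092 for Tnfrsf18 and -0.064 ± 0.10 for Tnfrsf1b, with adjusted p from 0.52 to 0.99 by edgeR. The signs of Cd28, Tnfrsf18 and Tnfrsf1b flipped under other settings. Over the 7 receptors the median log2 fold change was -0.11, against 0.0018 over all genes tested. All 4 Ly6C+ libraries lay below both Ly6C- libraries for 3 of the 7 receptors (42.9%), and the groups lay apart in that direction for 29% of all genes and in either direction for 47.6%. In the authors' deposited table, where the fold runs Ly6C- over Ly6C+, the fold was 2.75 for Tnfrsf9, 1.99 for Icos and 1.61 for Tnfrsf4, with adjusted p of 5.7e-11, 1.5e-11 and 0.035. Tnfrsf18, 9708 bp from Tnfrsf4, averaged 26.7 CPM in Ly6C+ and 27.6 CPM in Ly6C- cells. In bulk libraries, fewer cells that carry a transcript and less transcript per cell cannot be told apart.

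Regulatory T cell markers moved in the same direction as these receptors. All 5 regulatory T cell markers in the table and 4 of 5 CD4 T cell markers were called lower in Ly6C+ than in Ly6C- cells. The remaining CD4 T cell marker, Cxcr5, was called higher. Of all genes, 12.6% were called lower and 8.88% higher. The 5 CD4 markers summed to 59.9 to 70.7 CPM in Ly6C+ libraries and 118 to 128 CPM in Ly6C- libraries, with 75.6 CPM in true memory and 32.1 CPM in naive cells. Cxcr5, the receptor that guides cells to lymphoid follicles, made up most of the Ly6C+ sums, at 42.0 to 47.9 CPM in Ly6C+ libraries against 18.5 and 26.4 CPM in Ly6C- libraries. The other 4 summed to 17.9 to 23.6 CPM in Ly6C+ libraries and 92.0 to 110 CPM in Ly6C- libraries, with 58.7 CPM in true memory and 29.3 CPM in naive cells. Tnfrsf4 and Tnfrsf18 are both described above from regulatory T cells. Tnfrsf4 was called lower in Ly6C+ cells, and Tnfrsf18 was not called. The part of these markers' source cells in the Icos, Tnfrsf9 and Tnfrsf4 differences was not tested.

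**Figure D2:**
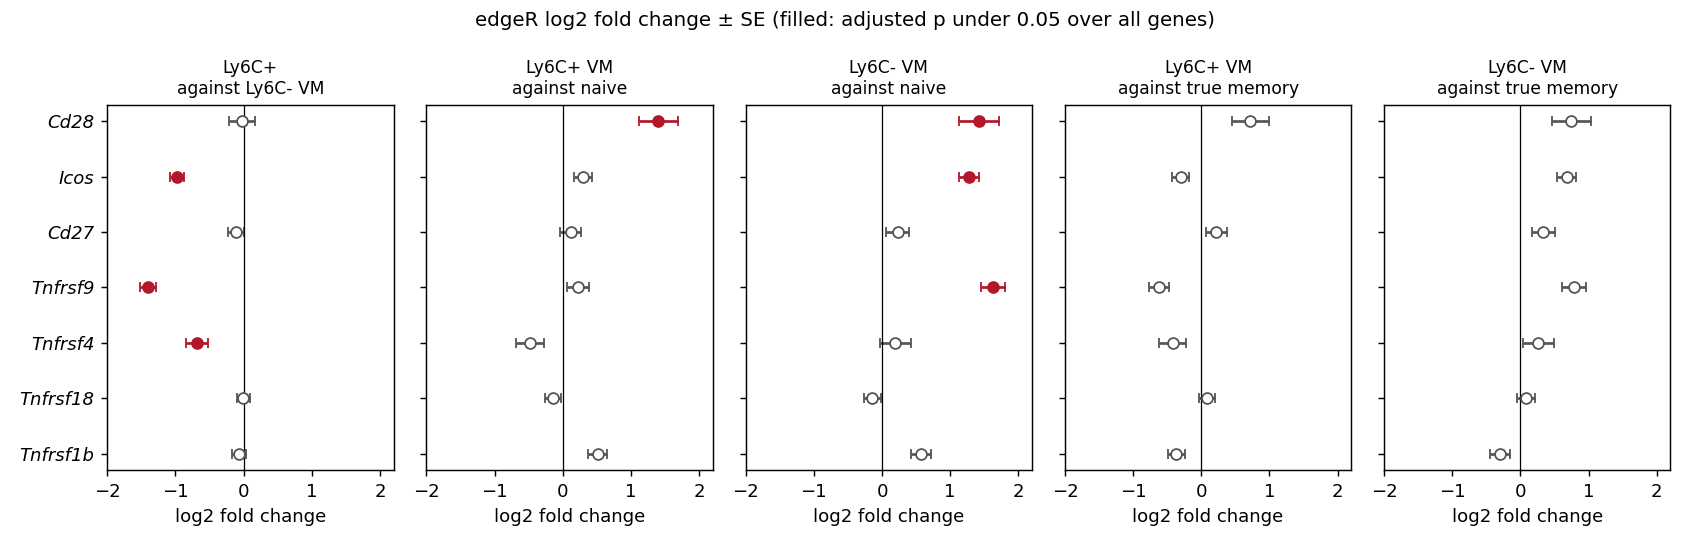
Log2 fold change with SE (horizontal axis) of each receptor gene (vertical axis) in 5 comparisons by edgeR's quasi-likelihood test, with filled red points for an adjusted p under 0.05 over all genes. Tnfrsf9, Icos and Tnfrsf4 lie left of 0 in Ly6C+ against Ly6C- VM cells, and Cd28 lies right of 0 against naive cells for both kinds of VM cell.

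Against naive cells, Cd28 was higher in both kinds of VM cell. The mean was 351 CPM in the 4 Ly6C+ libraries against 136 CPM in the naive library, a log2 fold change of 1.40 ± 0.28 (adjusted p = 0.044, edgeR). In the 2 Ly6C- libraries it was 371 CPM, a log2 fold change of 1.42 ± 0.30 (adjusted p = 0.042, edgeR). Both calls lie near the threshold: with no filter on low counts the edgeR adjusted p was 0.058 for Ly6C+ and 0.052 for Ly6C- cells. For Ly6C- cells it was 0.063 without Ly6C- Sca-1- and 0.073 without Ly6C- Sca-1+. The Cd28 difference was 1.63 on the log2 scale over Ly6C+ libraries A and 1.13 over libraries B.

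Icos and Tnfrsf9 were higher than naive in Ly6C- cells, where both had log2 fold changes of more than 1. Icos averaged 92.5 CPM in Ly6C- and 37.6 CPM in naive cells, a log2 fold change of 1.27 ± 0.15 (adjusted p = 0.0069, edgeR). Tnfrsf9 averaged 43.0 CPM in Ly6C- and 13.2 CPM in naive cells, a log2 fold change of 1.63 ± 0.18 (adjusted p = 0.0056, edgeR). For Tnfrsf9 the 2 Ly6C- libraries had 30.3 and 55.7 CPM. Each was alone in its sort group, so that gap does not enter the SE. In Ly6C+ cells the same differences from naive were 0.30 ± 0.13 for Icos (adjusted p = 0.30) and 0.23 ± 0.16 for Tnfrsf9 (adjusted p = 0.51), neither past the threshold by edgeR. In all, 1 of 7 receptors was called in Ly6C+ cells, as higher, beside 5.67% of all genes (3.54% as higher). In Ly6C- cells 3 of 7 were called, all as higher, beside 7.76% of all genes (5.74% as higher). The 2 comparisons share the naive library.

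Tnfrsf1b averaged 90.0 CPM in Ly6C+ and 97.6 CPM in Ly6C- cells, against 64.8 CPM in naive cells. The log2 fold changes were 0.51 ± 0.14 for Ly6C+ (adjusted p = 0.10) and 0.58 ± 0.15 for Ly6C- cells (adjusted p = 0.074), short of the threshold by edgeR. DESeq2 called both, at adjusted p of 0.019 for Ly6C+ and 0.015 for Ly6C- cells. In edgeR both were called without Ly6C+ Sca-1- library A, with adjusted p of 0.023 for Ly6C+ and 0.0031 for Ly6C- cells, and without library B of that group, with 0.0020 for Ly6C+ and 0.0025 for Ly6C- cells. Tnfrsf4 had log2 fold changes of -0.49 ± 0.20 in Ly6C+ and 0.20 ± 0.23 in Ly6C- cells against naive, neither called. Cd27 and Tnfrsf18 differed from naive by at most 0.23 in log2 size in either kind of VM cell.

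Against true memory cells, edgeR called 0 of the 7 receptors in either kind of VM cell, where 10.5% of all genes were called for Ly6C+ cells (8.6% as lower) and 2.3% for Ly6C- cells (2.24% as lower). At an unadjusted p under 0.05 by edgeR the count was 3 of 7 in each, beside 3660 (Ly6C+) and 1591 (Ly6C-) of 15112 genes. Both comparisons use the same true memory library. For Ly6C+ cells the 3 receptors were Tnfrsf9 at -0.62 ± 0.15 (adjusted p = 0.052), Cd28 at 0.72 ± 0.27 (adjusted p = 0.17) and Tnfrsf1b at -0.36 ± 0.13 (adjusted p = 0.15) on the log2 scale. For Ly6C- cells they were Tnfrsf9 at 0.78 ± 0.17 (adjusted p = 0.11), Icos at 0.68 ± 0.15 (adjusted p = 0.10) and Cd28 at 0.74 ± 0.29 (adjusted p = 0.43). DESeq2 called Tnfrsf9 for Ly6C+ cells, and Icos and Tnfrsf9 for Ly6C- cells. The limma-voom test called Tnfrsf9 for Ly6C+ cells and 0 receptors for Ly6C- cells. The edgeR counts move with single libraries. Each Ly6C+ library was left out in turn for Ly6C+ cells. The log2 fold changes were then 0.55 to 0.86 for Cd28, -0.70 to -0.55 for Tnfrsf9 and -0.44 to -0.30 for Tnfrsf1b. Each of the 6 VM libraries was left out in turn for Ly6C- cells. There they were 0.68 to 0.82 for Cd28, 0.46 to 0.90 for Icos and 0.39 to 1.19 for Tnfrsf9. Leaving out a Ly6C+ library lowers the residual degrees of freedom, and counts over all genes moved in the same fits.

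True memory and naive cells had 1 library each, so their differences have no replicate check and no p-value. On the log2 CPM scale with a prior count of 2, true memory minus naive was 0.87 for Tnfrsf1b, 0.84 for Tnfrsf9, 0.68 for Cd28 and 0.60 for Icos. It was -0.06 for Tnfrsf4, -0.11 for Cd27 and -0.22 for Tnfrsf18. None of the 7 differed by more than 2-fold, whereas 12.3% of all genes did.

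Within Ly6C+ VM cells no receptor passed the test between Sca-1+ and Sca-1- cells. None of the 7 was called by edgeR, DESeq2 or limma-voom, and edgeR called 0.00662% of all genes. At an unadjusted p under 0.05 by edgeR the count was 0 of 7, beside 650 of 15112 genes. Tnfrsf18 was 25.1 ± 0.468 CPM in Ly6C+ Sca-1+ and 28.2 ± 1.01 CPM in Ly6C+ Sca-1- cells (SD, n = 2 each), a log2 fold change of -0.18 ± 0.11 by edgeR. Tnfrsf4 was 4.49 ± 0.262 CPM in Ly6C+ Sca-1+ and 5.06 ± 0.346 CPM in Ly6C+ Sca-1- cells (SD, n = 2 each), a log2 fold change of -0.19 ± 0.19. Icos was 47.7 ± 7.81 CPM in Ly6C+ Sca-1+ and 42.9 ± 4.07 CPM in Ly6C+ Sca-1- cells (SD, n = 2 each), a log2 fold change of 0.14 ± 0.12. The other 4 receptors had log2 fold changes of at most 0.06 in size. In the authors' deposited table the adjusted p of this comparison was 1 for all 7.

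Within Ly6C- VM cells, with 1 library a group and so no test, Tnfrsf9 was 30.3 CPM in Sca-1+ and 55.7 CPM in Sca-1- cells, a log2 difference of -0.82. Icos went the other way, at 104 CPM in Sca-1+ and 80.6 CPM in Sca-1- cells, a log2 difference of 0.43. The remaining log2 differences were 0.23 for Tnfrsf1b, -0.16 for Cd28, -0.04 for Tnfrsf4, -0.02 for Cd27 and -0.02 for Tnfrsf18. None of the 7 passed 2-fold, against 6.04% of all genes. The matching Sca-1+ minus Sca-1- differences for Tnfrsf9 in Ly6C+ cells were -0.23 over libraries A and 0.09 over libraries B. A test of the difference between the Sca-1 effects, Ly6C- minus Ly6C+, gave -0.76 ± 0.24 for Tnfrsf9 on the log2 scale. By edgeR its unadjusted p was 0.019 and its adjusted p 0.96. This SE and p use only the spread of the Ly6C+ libraries and cannot measure that of the Ly6C- pair. For Icos the test gave 0.29 ± 0.20, and 0 of 7 receptors and 0% of all genes were called. At an unadjusted p under 0.05 by edgeR the count was 1 of 7, beside 768 of 15112 genes. By adjusted p, DESeq2 and limma-voom called 0 of 7.

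Libraries A and B of the same sort differed most in Cd28. Library B minus A was -0.38 in Ly6C+ Sca-1+ and -0.63 in Ly6C+ Sca-1- cells on the log2 scale. For Cd27 it was 0.31 and 0.18, in the opposite direction. For Icos it was 0.26 and 0.11, for Tnfrsf1b -0.14 and -0.28, and for Tnfrsf9 0.30 and -0.01. The Ly6C differences of the 3 called receptors were present in both sets of Ly6C+ libraries. Ly6C+ minus Ly6C- was -1.47 over libraries A and -1.33 over libraries B for Tnfrsf9, -1.07 and -0.88 for Icos, and -0.64 and -0.72 for Tnfrsf4. For Cd28 it was 0.21 over libraries A and -0.30 over libraries B, so its sign depended on the library. The Ly6C-, true memory and naive libraries carry no suffix, so only libraries A match them in this.

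Levels between genes can be set side by side only per transcript length. Each gene's CPM was therefore multiplied by a length factor, the ratio of the deposited TPM (the authors' length-corrected level) to CPM in the 4 libraries that stand alone in their group, and rescaled to the same total. The factor of each receptor varied by at most 1.05 times between those 4 libraries. On this scale Cd27 ranked 1 and Cd28 ranked 2 of the 7 in all 8 libraries, and Tnfrsf4 ranked 7 in all 8. Cd27 ran from 301 to 411 length-scaled CPM, above 97.6% to 98.2% of the genes of its library. Cd28 ran from 65.9 to 192, Tnfrsf18 from 48.8 to 61.1 and Tnfrsf1b from 27.5 to 51.5 length-scaled CPM. Icos ran from 24.0 to 64.4, Tnfrsf9 from 11.7 to 51.7 and Tnfrsf4 from 7.26 to 14.2 length-scaled CPM. The middle order changed between groups: Icos ranked 3 in Ly6C- Sca-1+ and 5 in every other library, and Tnfrsf9 ranked 4 in Ly6C- Sca-1- and 6 in every other library. In the Ly6C- Sca-1- library Tnfrsf18, Tnfrsf9 and Icos lay at 57.2, 51.7 and 51.3 length-scaled CPM, and with 1 library their order has no spread to be read against. The same holds for Tnfrsf9 at 12.3 and Tnfrsf4 at 11.9 in naive cells, and for Tnfrsf18 at 53.4 and Tnfrsf1b at 51.5 in true memory.

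**Figure D3:**
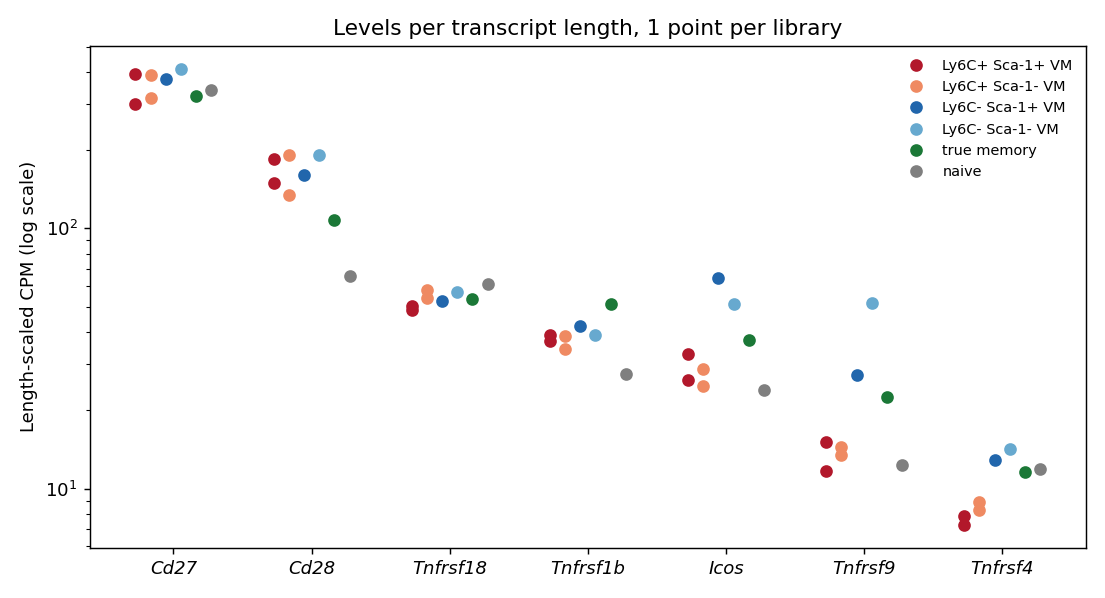
Length-scaled CPM (vertical axis, log scale) of the 7 receptor genes (horizontal axis), 1 point per library, coloured by sort group. Cd27 and Cd28 form the upper pair in every library and Tnfrsf4 is the lowest in every library, while Icos and Tnfrsf9 move up in the Ly6C- libraries.

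Ctla4 lies between Cd28 and Icos on the chromosome, and its product competes with CD28 for the same ligands. It had 30.7 and 21.4 CPM in Ly6C+ Sca-1+ libraries A and B, 26.0 and 12.7 CPM in Ly6C+ Sca-1- libraries A and B, 206 CPM in Ly6C- Sca-1+, 207 CPM in Ly6C- Sca-1-, 74.7 CPM in true memory and 14.6 CPM in naive cells. The log2 fold change of Ly6C+ against Ly6C- cells was -3.14 ± 0.30 (adjusted p = 0.0017, edgeR). Per transcript length, the Cd28 to Ctla4 ratio was 5.61 to 9.66 in the 4 Ly6C+ libraries, 0.728 in Ly6C- Sca-1+ and 0.843 in Ly6C- Sca-1- cells, 1.28 in true memory and 4.09 in naive cells. Of the 3 neighbours, Cd28 overlapped between the Ly6C groups, and Icos and Ctla4 did not. Of all genes tested, 47.6% did not overlap, 29% with the Ly6C+ libraries lower. Ctla4 is also on the list of regulatory T cell markers given above, and the part of such cells in its level was not tested.

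**Figure D4:**
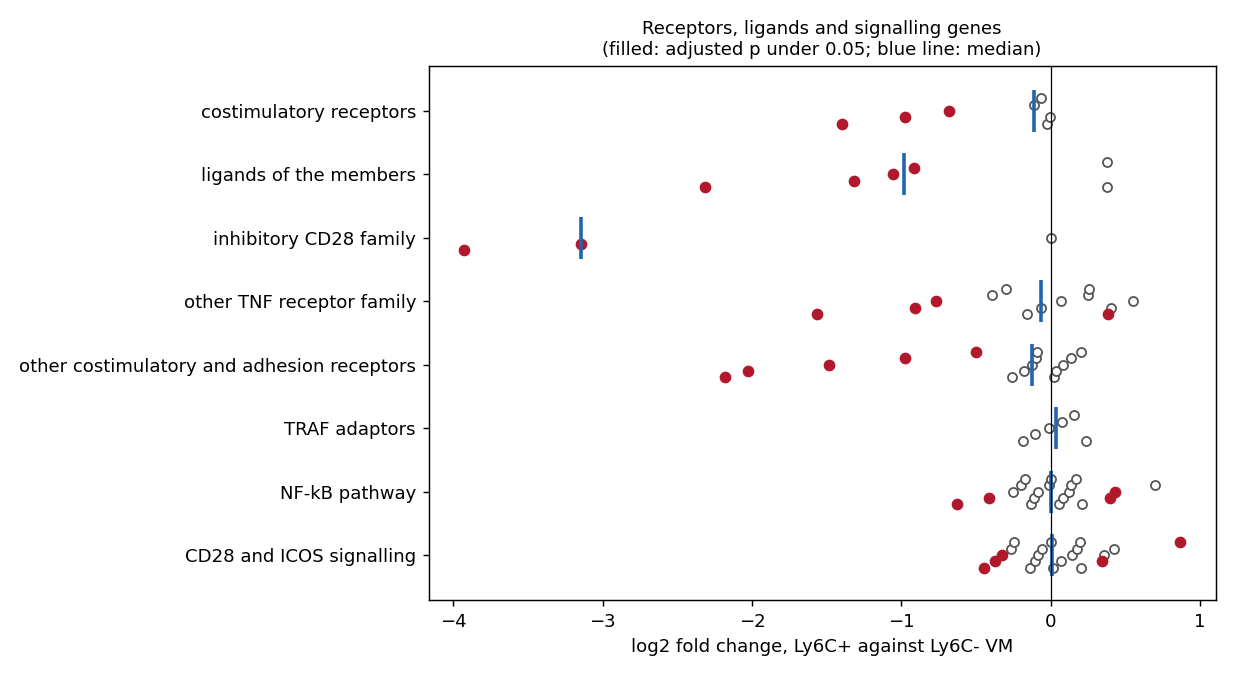
Log2 fold change of Ly6C+ against Ly6C- VM cells (horizontal axis) for each tested gene of the receptors and 7 related gene lists (vertical axis), with filled red points for an edgeR adjusted p under 0.05 and a blue line at each list's median. The ligands and the inhibitory CD28 family have medians of -0.98 and -3.14, while the TRAF, NF-kB and CD28 signalling lists have medians within 0.04 of 0.

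Of 9 genes for ligands of these receptors, 6 were in the table, and 4 of those were lower in Ly6C+ than in Ly6C- VM cells with 0 higher (median log2 fold change -0.98, against 0.0018 over all genes). Of all genes, 21.4% were called here and 12.6% as lower. On the dendritic cell and MHC class II list, 7 of 9 were called lower and 1 higher in the same comparison. The list's median log2 fold change was -2.28. Fewer genes of that list were called in some fits with 1 VM library left out. The part of these markers' source cells in the ligand differences was not tested. Cd86 averaged 13.7 CPM in Ly6C+ and 34.2 CPM in Ly6C- cells, a log2 fold change of -1.32 ± 0.20 (adjusted p = 0.0084, edgeR). Lta, for lymphotoxin alpha, averaged 9.63 CPM in Ly6C+ and 18.9 CPM in Ly6C- cells, a log2 fold change of -0.91 ± 0.13 (adjusted p = 0.0062, edgeR). Cd80 averaged 0.202 CPM in Ly6C+ and 0.909 CPM in Ly6C- cells, and Tnfsf9, the ligand of CD137, averaged 0.926 CPM in Ly6C+ and 2.01 CPM in Ly6C- cells. Both were called, at log2 fold changes of -2.32 ± 0.45 (adjusted p = 0.017) and -1.05 ± 0.27 (adjusted p = 0.040) by edgeR, but both are scarce. The count of 4 lower was 1 (Lta) without Ly6C- Sca-1- and 1 (Cd86) without Ly6C- Sca-1+, and without Ly6C+ Sca-1- library B it was 4 lower and 2 higher (Icosl and Tnf). Icosl had a log2 fold change of 0.38 ± 0.15 (adjusted p = 0.12) and Tnf of 0.38 ± 0.61 (adjusted p = 0.69), neither called by edgeR. Tnf had 16.9 CPM in library B and 39.3 CPM in library A of Ly6C+ Sca-1+ cells, and for Ly6C+ Sca-1- cells library B had 7.96 CPM and library A 33.6 CPM. Cd70, Tnfsf4 and Tnfsf18 were not analysed here.

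Against true memory, 3 of the 6 ligands were lower in Ly6C+ cells and 1 in Ly6C- cells, beside 8.6% and 2.24% of all genes. In Ly6C+ cells Cd80 was at 0.202 CPM against 6.62 CPM in true memory (log2 fold change -5.25 ± 0.46), Cd86 at 13.7 against 49.3 CPM (-1.87 ± 0.24) and Icosl at 10.3 against 33.8 CPM (-1.68 ± 0.16), with edgeR adjusted p of 0.0011, 0.0052 and 0.0017. In Ly6C- cells Icosl was at 8.24 CPM against 33.8 CPM in true memory, a log2 fold change of -2.05 ± 0.19 (adjusted p = 0.0071, edgeR), and it was the only ligand called. The Ly6C+ count of 3 lower was 4 without Ly6C+ Sca-1- library A or B, with Tnfsf9 added, and without library B Tnf was called in the other direction, as higher. Cd80 in Ly6C- cells, at -2.93 ± 0.52 (adjusted p = 0.0501, edgeR), was not called. It was called lower in Ly6C- cells with any 1 of the 4 Ly6C+ libraries left out. Lta in Ly6C- cells was called higher than in true memory without Ly6C+ Sca-1- library A or B. Cd80, Cd86 and Icosl are expressed by antigen-presenting cells. The sum over the dendritic cell and MHC class II list was likewise highest in true memory, 46.3 to 362 CPM in the VM libraries against 5211 CPM, and their part in the ligand levels was not tested. Against naive cells edgeR called 0 of the 6 ligands in either kind of VM cell, with 1 (Ly6C+) and 2 (Ly6C-) at an unadjusted p under 0.05. Of 15112 genes, 2852 (Ly6C+) and 3833 (Ly6C-) had an unadjusted p under 0.05 by edgeR. DESeq2 and limma-voom called 0 ligands for Ly6C+ cells and 1 each for Ly6C- cells.

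TRAF adaptors carry the signals of the TNF receptor members. Of the 6 TRAF genes, edgeR called 0 between Ly6C+ and Ly6C- VM cells, beside 21.4% of all genes. DESeq2 called 1 and limma-voom 0. By edgeR 1 TRAF gene had an unadjusted p under 0.05, beside 5465 of 15112 genes. Without Ly6C+ Sca-1- library A, edgeR called 1, Traf4. Traf1, which binds several of these TNF receptors and is induced by NF-kB, averaged 206 CPM in Ly6C+ and 230 CPM in Ly6C- cells, a log2 fold change of -0.11 ± 0.13. The others had log2 fold changes of -0.0081 for Traf2, 0.24 for Traf3, -0.19 for Traf4, 0.078 for Traf5 and 0.16 for Traf6. Traf3 had the smallest p, with an adjusted p of 0.069 by edgeR.

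Of 19 NF-kB pathway genes, 2 were higher and 2 lower in Ly6C+ than in Ly6C- cells, a share close to the 21.4% of all genes. Ikbkb and Ikbkg, subunits of the I-kappa-B kinase, were higher at log2 fold changes of 0.43 ± 0.088 and 0.40 ± 0.078. Nfkb1 was lower at -0.41 ± 0.079 and Bcl3, a nuclear partner of NF-kB, at -0.63 ± 0.13, with adjusted p of 0.017 to 0.021 for the 4 by edgeR. None of the 19 was called without Ly6C+ Sca-1+ library B, without Ly6C- Sca-1- or without Ly6C- Sca-1+, and 1, Bcl3, without Ly6C+ Sca-1+ library A. Of 20 CD28 and ICOS signalling genes, 2 were higher and 3 lower, a share of 25% that is also close to the 21.4% of all genes. Malt1, the paracaspase that links antigen receptor and CD28 signals to NF-kB, averaged 286 CPM in Ly6C+ and 162 CPM in Ly6C- cells, a log2 fold change of 0.86 ± 0.085 (adjusted p = 0.0019, edgeR). Malt1 was called with any 1 of the 6 VM libraries left out. The smaller changes of Akt1 (-0.45 ± 0.080) and Lcp2 (-0.37 ± 0.080), both lower in Ly6C+ cells, and of Pik3r1 (0.35 ± 0.077), higher, were called at adjusted p of 0.014, 0.025 and 0.027 by edgeR. The count of 5 was 1 without Ly6C+ Sca-1+ library A or without Ly6C- Sca-1+, 2 without Ly6C+ Sca-1+ library B and 3 without Ly6C- Sca-1-.

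Other receptors of the same families and of related ones were mixed. Of all genes, 21.4% were called between Ly6C+ and Ly6C- cells, 12.6% as lower and 8.88% as higher. Of 22 other TNF receptor family genes 13 were in the table, with 1 higher and 3 lower in Ly6C+ cells. Fas, the death receptor, averaged 13.9 CPM in Ly6C+ and 26.7 CPM in Ly6C- cells, a log2 fold change of -0.91 ± 0.15 (adjusted p = 0.012, edgeR). Tnfrsf13b and Tnfrsf13c, receptors best known from B cells, had log2 fold changes of -0.77 ± 0.094 and -1.57 ± 0.24, and Relt one of 0.38 ± 0.074. Summed B cell markers were 13.4 to 16.6 CPM in Ly6C+ libraries and 24.7 to 32.7 CPM in Ly6C- libraries, and their part in these values was not tested. The count of 4 was 2 without either Ly6C- library, and without Ly6C+ Sca-1- library A 3 were higher and 3 lower. Of 3 inhibitory CD28 family genes, Ctla4 and Pdcd1 were lower in Ly6C+ cells, and Btla was not called at 0.0036 ± 0.091. Pdcd1, for the inhibitory receptor PD-1, averaged 0.849 CPM in Ly6C+ and 12.9 CPM in Ly6C- cells, a log2 fold change of -3.93 ± 0.29 (adjusted p = 0.00085, edgeR). Of 15 other costimulatory and adhesion receptor genes, 5 were lower and 0 higher, and they were Slamf1, Cd81, Cd244a, Slamf6 and Cd226. Slamf6, a self-ligand receptor of lymphocytes, averaged 156 CPM in Ly6C+ and 316 CPM in Ly6C- cells, a log2 fold change of -0.98 ± 0.15 (adjusted p = 0.0085, edgeR). The count of 5 was 2 (Slamf1 and Slamf6) without Ly6C- Sca-1-.

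Some genes that antigen receptor signals induce, and genes tied to recent division, also differed between the Ly6C groups. Of all genes, 12.6% were called lower in Ly6C+ cells and 8.88% higher. Of 12 T cell receptor response genes, 6 were lower in Ly6C+ than in Ly6C- cells (Nr4a3, Egr2, Egr3, Irf4, Batf and Ikzf2) and 1 higher (Tbx21), with a median log2 fold change of -0.67. The count of 7 was 3 without Ly6C- Sca-1-. Nr4a1, Nr4a2, Egr1, Myc and Cd69 were not called. Nr4a1 had 340 and 113 CPM in Ly6C+ Sca-1+ libraries A and B, and 374 and 91.9 CPM in those of Ly6C+ Sca-1-. Its Ly6C- values were 241 CPM (Sca-1+) and 295 CPM (Sca-1-). Cd69 had 485 and 308 CPM, then 522 and 265 CPM, in the same Ly6C+ libraries, against 326 and 387 CPM. Myc varied less, at 170 to 198 CPM in Ly6C+ libraries against 140 and 164 CPM. On the cell cycle list, 16 of 16 genes were called lower in Ly6C+ cells, with a median log2 fold change of -2.54.

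Across the 8 libraries, Icos and Tnfrsf9 resembled each other most among the 7 receptors, with Pearson r = 0.84 of log2 CPM. The r was 0.73 for Tnfrsf4 with Tnfrsf9 and 0.62 for Icos with Tnfrsf4. These are descriptions over 8 libraries of 6 groups, which share 1 table and 1 set of scaling factors, and they carry no p. Among up to 941 genes with a mean of at least 5 CPM and an SD of at least 0.5 on the log2 scale, those most like Tnfrsf9 were Ypel2 (r = 0.99), Pou2af1 (0.97) and Ceacam16 (0.96). Those most like Icos were Bcat1 (0.96), Capg (0.96) and Prim1 (0.95), and those most like Tnfrsf4 were Izumo1r (0.97), Gfi1 (0.96) and Nab2 (0.96). Izumo1r is also on the CD4 T cell marker list. For Cd28 they were Xcl1 (0.96), Maff (0.93) and Tnfaip3 (0.93), and for Tnfrsf1b Serpina3g (0.99), Inppl1 (0.97) and Atf6 (0.96). Cd27 and Tnfrsf18 vary little, and their closest genes, mt-Rnr1 at 0.74 and Evi2b at 0.71, were less alike. Tnfaip3, which encodes the NF-kB inhibitor A20, shared the split of Cd28 between libraries: library B had 1045 CPM and library A 2106 CPM in Ly6C+ Sca-1+ cells, and library B had 1240 CPM and library A 2172 CPM in Ly6C+ Sca-1- cells.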

How the data were processed

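Read counts per gene were deposited for 8 libraries in 1 table of 15609 genes. Per the labels' protocols, stranded mRNA libraries (TruSeq) were sequenced as paired reads of 101 bp. The submitters' processing notes name FastQC 0.11.7, Trimmomatic 0.38, mm10, edgeR and R 3.6.0, while an aligner or counter is not given in the sources used here. Deposited TPM, computed by the authors, were read for the 4 libraries alone in their group, only to get each gene's length factor. Signed folds, a score with no values between -1 and 1, and adjusted p-values of the authors' deposited comparisons are quoted as theirs, and 20 per-sample columns were not used. Groups follow the sample titles, because another label field calls every group virtual memory.

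CPM are counts over the library total. The 15112 genes kept by filterByExpr entered 1 quasi-likelihood fit in edgeR 4.0.16 (R 4.3.3) with TMM scaling (factors 0.955 to 1.04) and 1 coefficient for each of the 6 groups. The spread came from the 2 replicated groups (2 residual degrees of freedom, prior 4.14, common biological coefficient of variation 0.151), and groups of 1 library were taken to vary as these do. The fit was also run on simulated counts, drawn for every group at the spread that the fit itself had estimated. That run cannot show whether groups of 1 library vary as the replicated groups do. The SE is the log2 fold change over the root of F. Groups with 1 library on each side have log2 CPM differences (prior count 2) without a p-value. Alternatives were DESeq2 1.42.0, limma-voom (limma 3.58.1), other size factors, filters and prior counts, a block on the suffix, and leaving out each of the 6 VM libraries in turn.

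All 7 receptors, each ligand and TRAF gene, up to 4 genes a list with the smallest p in Ly6C+ against Ly6C- cells, and the 3 genes most like each receptor could be named. The genes Cd244a, Batf, Ikzf2, Irf4, Nr4a1, Cd69 and Myc, and others given to complete a count, were named after their values were seen. The members and lists were chosen with earlier results of these data known. Gene IDs matched RefSeq for 15570 genes and all 7 receptors, from which positions were taken. Promoter windows came from a separate reference set and were matched by the same gene IDs.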

Additional observations from a re-analysis of the deposited data

How the results depend on the processing

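Icos and Tnfrsf9 were called in Ly6C+ against Ly6C- VM cells, and in Ly6C- VM cells against naive, under every alternative run. Counts of receptors called moved elsewhere. With no filter on low counts the count against naive was 0 and not 1 for Ly6C+ cells, and 2 and not 3 for Ly6C- cells. That fit called 778 and 1038 of 15609 genes. DESeq2 called 2 for Ly6C+ and 4 for Ly6C- against naive, beside 1338 and 1857 of 15112 genes. Against true memory it called 1 for Ly6C+ and 2 for Ly6C-, beside 1921 and 542 of all genes. The limma-voom test called 1 for Ly6C+ against true memory, beside 1816 of all genes. With single VM libraries left out, receptor counts moved for Ly6C+ against Ly6C- cells, and for both kinds of VM cell against naive and against true memory. Counts over all genes moved in the same fits, so these receptor counts cannot be read as a result about the receptors alone. Against naive, the receptors whose calls changed were Cd28 and Tnfrsf1b. Both stayed higher than naive in every such fit.

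Pairing of libraries by suffix is not stated. Deviations of same-suffix libraries correlated at r = 0.35 across 15112 genes, from 1 pairing only. With a replicate block on the suffix the counts were 5 for Ly6C+ against Ly6C- and 1 (Tnfrsf9) for the difference of Sca-1 effects. The 5 included Cd27, added as lower (adjusted p = 0.0086, edgeR), and Cd28, added as higher (log2 fold change 0.21, adjusted p = 0.032, edgeR). Without the block the log2 fold change of Cd28 was -0.022. The counts were 2 for Ly6C+ and 5 for Ly6C- against naive, and 4 for Ly6C+ and 5 for Ly6C- against true memory. Of 15112 genes the block called 3442 and 5274 against naive, where 857 and 1172 were called without it. Against true memory it called 4644 and 1867, where 1594 and 348 were called without it. Libraries B exist only in the Ly6C+ groups, and the block takes up a residual degree of freedom. That fit called 6601 of all genes in Ly6C+ against Ly6C-, where 3240 were called without it and 1126 to 4381 with 1 library left out. Of all genes, Sca-1+ against Sca-1- in Ly6C+ cells gave 1 call by edgeR, 223 by DESeq2 and 1 to 307 with 1 library left out, and the difference of Sca-1 effects gave 0, 39 and 0 to 169.

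Other small values changed sign. For Ly6C+ against Ly6C-, the log2 fold change of Tnfrsf18 was 0.0089 with DESeq2 size factors, 0.013 with a 1 CPM filter, 0.0089 with DESeq2 and 0.026 with the block. With the block, Tnfrsf1b was 0.037 there, and Cd27 was -0.013 for Ly6C+ against naive. The 1 CPM filter gave Cd27 -0.0083 for the difference of Sca-1 effects. With 1 library left out, Ly6C+ against Ly6C- ran from -0.20 to 0.12 for Cd28, -0.069 to 0.076 for Tnfrsf18 and -0.14 to 0.025 for Tnfrsf1b. Sca-1+ against Sca-1- in Ly6C+ cells ran from -0.19 to 0.11 for Cd27, -0.26 to 0.37 for Cd28, -0.22 to 0.083 for Tnfrsf9 and -0.081 to 0.20 for Tnfrsf1b. The difference of Sca-1 effects ran from -0.13 to 0.17 for Cd27 and -0.53 to 0.096 for Cd28. The cause was not tested for any of these. The scarcest receptor, Tnfrsf4, had at least 241 counts a library, and 4 of the 6 groups had 1 library.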
